A study of Homo sapiens with 12 samples.

Results

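The FOS and JUN genes of the AP-1 transcription factor were followed in A375 cells, an established human melanoma line with an activating BRAF mutation, by RNA sequencing. The members were the rows of the deposited count table named FOS, FOSB, FOSL1, FOSL2, JUN, JUNB and JUND, which are 7 of 61209 gene names. All 7 passed the filter on low counts and were tested, among 18526 gene names. The 12 libraries form 4 groups of 3: OGDH-depleted cells starved of glucose for 5 h, control cells starved of glucose for 5 h, OGDH-depleted cells with glucose, and control cells with glucose. The product of OGDH is the E1 component of 2-oxoglutarate dehydrogenase, an enzyme complex of the tricarboxylic acid cycle. The depleted cells are KO in the sample titles and knockdown in the series text, and neither names the construct, the control construct or the number of clones. Cells with glucose are called fed here.

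AP-1 is a dimer of basic leucine zipper proteins that binds the TPA response element, a short palindromic DNA site. JUN proteins can pair with each other or with FOS proteins, whereas FOS proteins need a JUN partner. Several of the genes are immediate early genes, whose mRNA appears within minutes of a stimulus without new protein synthesis and is then degraded quickly. FOSL1, which encodes FRA-1, is known for its dependence on ERK signalling, the pathway that mutant BRAF drives in melanoma.

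The proximal promoters are shown because the members that moved most and those that moved least can be read against the same elements. RefSeq promoters (GRCh38.p14) were matched for 6 of the 7 genes, all but FOSL1, and the 150 bases before each start are printed 5′ to 3′ on the gene's own strand. Capitals mark a cyclic AMP response element core (TGACGT, or ACGTCA where it lies on the other strand), the element of the JUN promoter (TGACATCA) and a TATA box (TATAAA).
FOS: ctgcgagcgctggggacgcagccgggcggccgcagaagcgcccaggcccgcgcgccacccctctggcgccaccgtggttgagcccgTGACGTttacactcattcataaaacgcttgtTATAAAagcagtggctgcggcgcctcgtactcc
FOSB: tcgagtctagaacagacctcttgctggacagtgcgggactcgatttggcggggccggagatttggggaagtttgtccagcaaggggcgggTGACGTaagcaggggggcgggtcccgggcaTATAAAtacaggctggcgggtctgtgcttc
FOSL2: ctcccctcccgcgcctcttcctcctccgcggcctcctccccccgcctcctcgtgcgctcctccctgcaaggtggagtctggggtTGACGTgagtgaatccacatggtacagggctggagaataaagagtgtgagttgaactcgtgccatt
JUN: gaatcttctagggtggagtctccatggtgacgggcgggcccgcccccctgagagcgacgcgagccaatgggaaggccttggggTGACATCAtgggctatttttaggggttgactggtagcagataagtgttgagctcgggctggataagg
JUNB: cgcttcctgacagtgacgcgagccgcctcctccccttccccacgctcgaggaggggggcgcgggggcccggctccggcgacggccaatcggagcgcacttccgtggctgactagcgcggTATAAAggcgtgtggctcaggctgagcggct
JUND: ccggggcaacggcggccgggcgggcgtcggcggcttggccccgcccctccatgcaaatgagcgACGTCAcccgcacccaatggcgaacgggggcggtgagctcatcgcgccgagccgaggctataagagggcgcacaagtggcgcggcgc
They lie at chr14:75278678-75278827 on the plus strand for FOS, chr19:45467846-45467995 on the plus strand for FOSB and chr2:28392708-28392857 on the plus strand for FOSL2. Those of the JUN genes lie at chr1:58784048-58784197 on the minus strand for JUN, chr19:12791336-12791485 on the plus strand for JUNB and chr19:18281623-18281772 on the minus strand for JUND. The FOSL2 stretch lies inside the span of the counted gene (chr2:28392448-28417317), so the RefSeq start used is downstream of the start in the count table. Motifs were searched on both strands over the 250 bases before the start.

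The core TGACGT was found in 4 of the 6 promoters and in 7.1% of all 35116 promoters of that length. It lay 64 to 59 bases before the start in FOS, 60 to 55 in FOSB, 66 to 61 in FOSL2 and 87 to 82 in JUND. JUND held a second match, the full palindrome TGACGTCA that contains the core on both strands, 200 to 193 bases before the start, outside the printed stretch; 1.65% of all promoters hold it. TGACATCA was found in JUN alone among the 6, 67 to 60 bases before the start, and in 2.37% of all promoters. TATAAA was found in FOS, FOSB and JUNB, 25 to 33 bases before the start, and in 10.7% of all promoters. The TPA response element TGACTCA (4.2% of all promoters) and the CArG box (1.16%) matched none of the 6 windows. Sites more than 250 bases before the start, in FOS or any other gene, were not searched and may hold either element. A match of letters is a description and does not show that a factor binds there.

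The libraries held 21556273 to 25546615 counted fragments, and levels are in CPM, which relate a count to the TMM-scaled total of its library. OGDH mRNA stood at 32.3, 33.9 and 32.3 CPM in starved OGDH-depleted cells and at 129, 133 and 131 CPM in starved control cells. With glucose it stood at 38.1, 45.1 and 36.3 CPM in OGDH-depleted cells and at 156, 142 and 166 CPM in control cells. The melanocyte lineage markers SOX10 (299 to 670 CPM) and MITF (23.5 to 49.3 CPM) were detected in every library, as was AXL (308 to 704 CPM), a marker of undifferentiated melanoma. The pigment cell markers PMEL, MLANA, TYR, DCT and S100B stayed at or below 1.82 CPM. Of 9 markers of epithelium, blood, endothelium and fibroblasts, 8 stayed at or below 1.75 CPM and PDGFRB reached 8.96 CPM in its highest library.

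Of the starved libraries, OGDH-depleted replicate 3 and control replicate 3 stood apart from their groups, as did fed control replicate 2. Their correlations with the rest of their group were the lowest of each group, and their share of mitochondrially encoded counts was 9.71% in the starved OGDH-depleted library, 4.11% in the starved control library and 14.6% in the fed control library. For the starved OGDH-depleted library the margin was small (mean correlation 0.9825, against 0.9837 for replicate 1 and 0.9883 for replicate 2), so it stood apart less clearly. The other libraries had shares of 3.06% and 5.12% in starved OGDH-depleted cells, 14.4% and 13.2% in starved control cells, and 4.97% and 6.35% in fed control cells. Calls of the members that rest on these libraries are given with and without them. Without these 3, the starved control libraries held shares of 14.4% and 13.2%, and every other library held 3.06% to 6.98%. In that setting the share cannot be told apart from the starved control group.

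With starvation in control cells, 6 of the 7 members rose, all but FOSL2 (edgeR, adjusted p under 0.05). Across all tested genes 17% were called higher and 17.5% lower. The median log2 fold change was 1.64 over the members and -0.02 over all tested genes. FOS and FOSB rose most, JUN by less, and JUNB, JUND and FOSL1 least. Less RNA per cell and fewer cells expressing a gene cannot be told apart in such bulk libraries, here or in any comparison that follows. Separate cultures are not stated in the labels, and the p-values therefore measure the spread between these samples only. Whether groups overlap is given below as a description. The share of all tested genes whose groups do not overlap was not counted.

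FOS, the founding immediate early gene of the family (hg38 chr14:75278826-75282230, plus strand), stood at 370, 389 and 447 CPM in starved control cells and at 13.2, 11.9 and 15.6 CPM in fed control cells. The groups lay far apart, a 29.6-fold difference (log2 fold change 4.89, SE 0.14, adjusted p = 2.36e-09). By size it was change 28 of all tested genes, counted with no minimum level. FOSB, whose short splice form is known for accumulating after repeated stimulation, is at chr19:45467995-45475179 on the plus strand. It stood at 475, 516 and 501 CPM in starved control cells and at 24.3, 25.2 and 31.1 CPM in fed control cells, 18.5-fold apart (log2 fold change 4.21, SE 0.12, adjusted p = 2.36e-09).

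FOSL1 (chr11:65892049-65900573, minus strand) stood at 1875, 1895 and 962 CPM in starved control cells and at 561, 1028 and 700 CPM in fed control cells. The third starved library lay below the second fed one, so the groups overlapped. The call (log2 fold change 1.05, SE 0.31, adjusted p = 0.0209) is the least firm of the 6. It was lost without starved control replicate 1 (adjusted p = 0.0753) or 2 (0.0751), without fed control replicate 1 (0.0784) or 3 (0.0717), with a GC correction (0.0562) and when the starved and fed control libraries were fitted alone (0.052). Without the 3 libraries that stood apart it was 1.57 (adjusted p = 1.36e-05). With the mitochondrial share as a term in the fit it was 0.89 (adjusted p = 2.25e-10). FOSL2, which encodes FRA-2 (chr2:28392448-28417317, plus strand), stood at 153, 158 and 204 CPM in starved control cells and at 160, 124 and 160 CPM in fed control cells. These ranges overlapped, and its log2 fold change of 0.22 (SE 0.15, 95% interval -0.12 to 0.55) did not pass the test (adjusted p = 0.296).

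Among the JUN genes the order of the changes was JUN, JUNB and JUND. JUN, whose protein is the classical partner of FOS (chr1:58776845-58784048, minus strand), stood at 517, 587 and 644 CPM in starved control cells and at 97.5, 83.9 and 102 CPM in fed control cells. Its groups were 6.17-fold apart (log2 fold change 2.62, SE 0.12, adjusted p = 4.18e-08). JUNB, a weaker activator that can oppose JUN (chr19:12791486-12793315, plus strand), stood at 434, 391 and 509 CPM in starved control cells and at 160, 112 and 157 CPM in fed control cells. The groups did not overlap (log2 fold change 1.64, SE 0.17, adjusted p = 2.35e-05). JUNB shares 259 bases, 14.2% of its exon bases, with exons of HOOK2, and fragments there were not counted for either gene. JUND, the member usually expressed steadily and induced least (chr19:18279694-18281622, minus strand), stood at 229, 174 and 284 CPM in starved control cells and at 90.6, 62.7 and 85.2 CPM in fed control cells. Its groups did not overlap either (log2 fold change 1.53, SE 0.20, adjusted p = 0.000147).

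**Figure D1:**
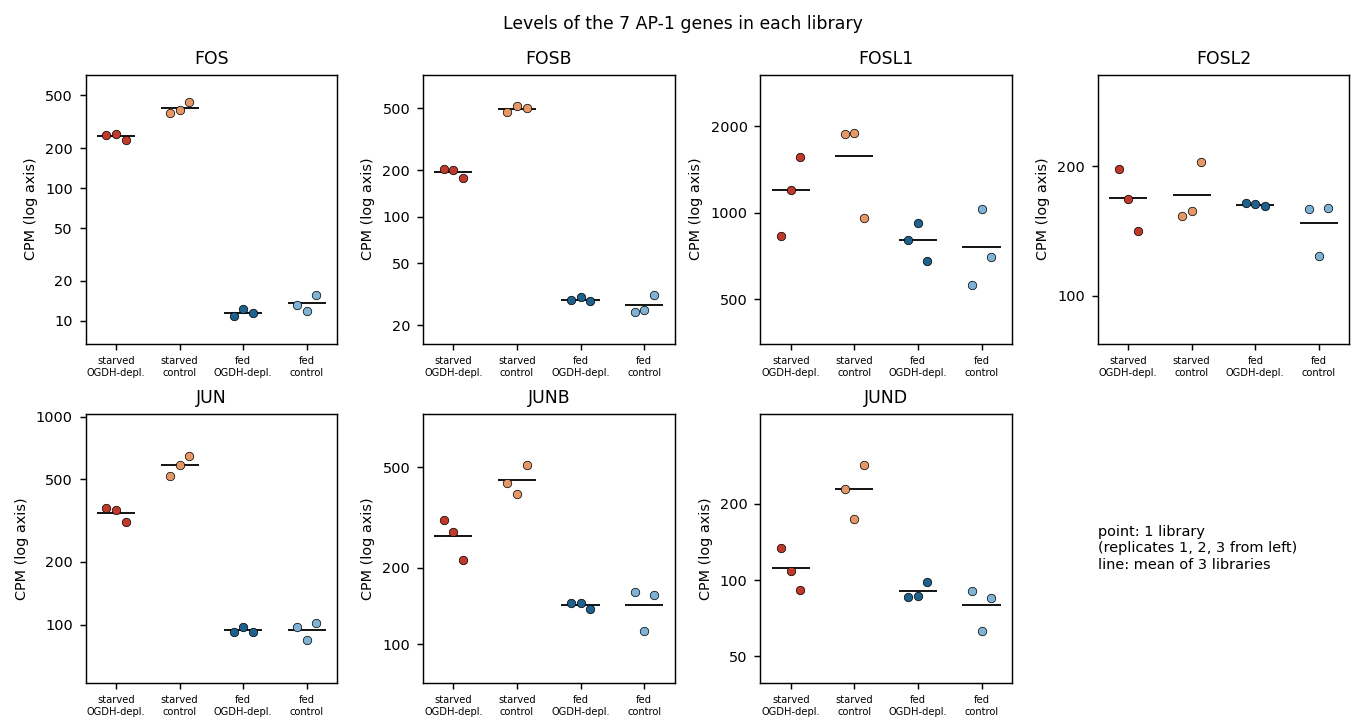
Levels of the 7 AP-1 genes in each library, in CPM on a log axis with its own scale per gene; points are libraries in replicate order and lines are group means (n = 3). FOS, FOSB, JUN and JUNB lie above the fed libraries in every starved library, FOSL2 overlaps in all groups but the fed pair, and FOSL1 has the widest spread within groups.

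With starvation in OGDH-depleted cells, 4 of the 7 members rose: FOS, FOSB, JUN and JUNB. Across all tested genes 2.42% were called higher and 4.76% lower. The median log2 fold change was 0.91 over the members and 0.02 over all tested genes. FOS stood at 251, 254 and 229 CPM in starved OGDH-depleted cells and at 10.8, 12.4 and 11.4 CPM in fed OGDH-depleted cells. That 21.3-fold difference (log2 fold change 4.41, SE 0.13, adjusted p = 2.22e-08) was change 4 by size among all tested genes. FOSB stood at 202, 200 and 177 CPM in starved OGDH-depleted cells and at 28.9, 30.2 and 28.6 CPM in fed OGDH-depleted cells. The groups were 6.61-fold apart (log2 fold change 2.72, SE 0.11, adjusted p = 3.76e-07). JUN stood at 362, 354 and 312 CPM in starved OGDH-depleted cells and at 91.7, 97.8 and 91.6 CPM in fed OGDH-depleted cells, with a log2 fold change of 1.87 (SE 0.11, adjusted p = 9.47e-06). JUNB stood at 311, 277 and 215 CPM in starved OGDH-depleted cells and at 145, 145 and 138 CPM in fed OGDH-depleted cells. Each of these 4 genes was higher in every starved library than in any fed one, and JUNB changed least (log2 fold change 0.91, SE 0.17, adjusted p = 0.00789).

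The other 3 members did not pass in OGDH-depleted cells. FOSL1 stood at 831, 1201 and 1571 CPM in starved OGDH-depleted cells and at 807, 919 and 682 CPM in fed OGDH-depleted cells (log2 fold change 0.58, SE 0.31, adjusted p = 0.267). FOSL2 stood at 197, 168 and 142 CPM in starved OGDH-depleted cells and at 164, 164 and 161 CPM in fed OGDH-depleted cells (log2 fold change 0.05, SE 0.15, adjusted p = 0.851). JUND stood at 134, 109 and 91.6 CPM in starved OGDH-depleted cells and at 85.9, 86.3 and 98.4 CPM in fed OGDH-depleted cells. For all 3 the groups overlapped, and the JUND interval ran from -0.13 to 0.74 around a log2 fold change of 0.30 (adjusted p = 0.356). JUND passed with a GC correction (0.69, adjusted p = 0.000989) and without the 3 libraries that stood apart (0.41, adjusted p = 0.0371).

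OGDH loss with glucose moved no member past the threshold: edgeR called 0 of 7, DESeq2 called 0, and 0 had an unadjusted p under 0.05. Across all tested genes 1.59% were called higher and 1.45% lower. The median log2 fold change was 0.07 over the members and -0.01 over all tested genes. The largest fitted difference was that of FOS, at -0.24 with a 95% interval of -0.50 to 0.03 (adjusted p = 0.371), and the widest interval was that of FOSL1, -0.59 to 0.74. FOSL2 was the only one whose fed groups did not overlap, with a log2 fold change of 0.14 and an adjusted p of 0.707. JUN and JUNB differed by -0.01 and -0.005, FOSB by 0.12 and JUND by 0.18. FOS passed without the 3 libraries that stood apart (-0.33, adjusted p = 0.0418).

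OGDH loss without glucose was accompanied by lower levels of 5 of the 7 members: FOS, FOSB, JUN, JUNB and JUND. Across all tested genes 13.7% were called higher and 15% lower. The median log2 fold change was -0.73 over the members and 0.004 over all tested genes. FOSB fell to 193 ± 14.1 CPM in starved OGDH-depleted cells, against 497 ± 20.4 CPM in starved control cells (SD, n = 3 each). That was the largest of the 5 differences (log2 fold change -1.37, SE 0.11, adjusted p = 4.53e-06). JUND averaged 111 ± 21.2 CPM in starved OGDH-depleted cells and 229 ± 55.2 CPM in starved control cells (log2 fold change -1.04, SE 0.20, adjusted p = 0.00236). JUN averaged 343 ± 26.6 CPM in starved OGDH-depleted cells and 583 ± 63.7 CPM in starved control cells (log2 fold change -0.77, SE 0.11, adjusted p = 0.000391). In each of the 5 genes the highest OGDH-depleted library lay below the lowest control library, a description not set against all tested genes.

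FOS and JUNB fell as well. FOS averaged 245 ± 13.6 CPM in starved OGDH-depleted cells and 402 ± 40.0 CPM in starved control cells (log2 fold change -0.72, SE 0.11, adjusted p = 0.000775). JUNB averaged 268 ± 48.8 CPM in starved OGDH-depleted cells and 445 ± 59.7 CPM in starved control cells (log2 fold change -0.73, SE 0.17, adjusted p = 0.00635). FOSL1 (-0.39, SE 0.30, adjusted p = 0.379) and FOSL2 (-0.02, SE 0.15, adjusted p = 0.925) did not pass, and their groups overlapped. Without the 3 libraries that stood apart FOSL1 passed at -0.91 (adjusted p = 0.000954) and FOSL2 at 0.21 (adjusted p = 0.0461). With the mitochondrial share as a term in the fit FOSL2 passed in the other direction, at -0.22 (adjusted p = 0.00348). In that fit FOSL1 did not pass, at 0.06 (adjusted p = 0.43).

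The starvation response itself was compared between OGDH-depleted and control cells with the interaction term, the difference of the 2 responses. It was lower in OGDH-depleted cells for 3 of the 7 members, FOSB, JUN and JUND. Across all tested genes 8.3% were called higher and 8.95% lower. The median over the members was -0.73, against 0.01 over all tested genes. The FOSB response was smaller by 1.48 log2 units in OGDH-depleted cells (interaction -1.48, SE 0.15, adjusted p = 6.16e-05). That of JUN differed by -0.75 (SE 0.16, adjusted p = 0.00687) and that of JUND by -1.22 (SE 0.28, adjusted p = 0.0115).

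JUNB (-0.73, SE 0.23, adjusted p = 0.0537) and FOS (-0.48, SE 0.17, adjusted p = 0.0719) did not pass in the interaction, although their unadjusted p was under 0.05. FOSL1 (-0.47, SE 0.43) and FOSL2 (-0.17, SE 0.21) had wide intervals that span 0. Without the 3 libraries that stood apart the count was 5 of 7. In that setting 8077 of all tested genes were called, against 3196 with all libraries. JUNB was among the 5 members, at -0.35 (adjusted p = 0.0223), as was FOSL1, at -1.25 (adjusted p = 0.00134). With the mitochondrial share as a term in the fit FOSL1 was at -0.24 (adjusted p = 0.0274). By DESeq2 the count was 4. JUNB also passed with the GC correction (-0.65, adjusted p = 0.00212), with a stricter filter (0.049), by DESeq2 (0.0342) and without starved OGDH-depleted replicate 1 (0.0369), and FOS without fed control replicate 3 (adjusted p = 0.0367).

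**Figure D2:**
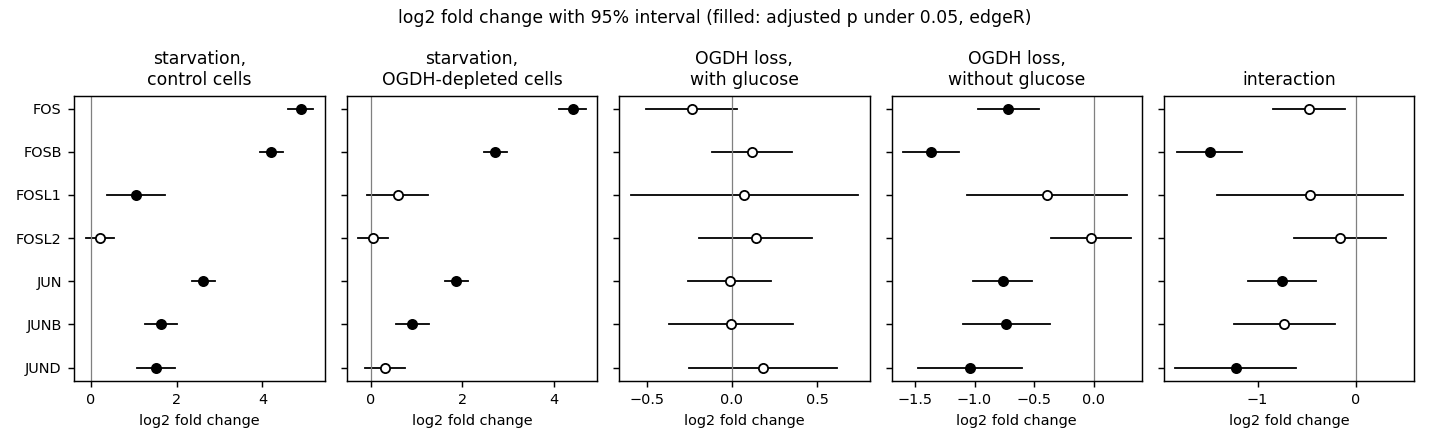
log2 fold changes of the 7 genes (points) with 95% intervals (lines) in the 5 comparisons, one panel each with its own scale; filled points passed an adjusted p of 0.05 by edgeR. The filled points number 6 and 4 for starvation in control and OGDH-depleted cells, 0 and 5 for OGDH loss with and without glucose, and 3 for the interaction.

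Across the 4 groups, FOS, FOSB, JUN and JUNB kept one order of levels. They were highest in starved control cells, lower in starved OGDH-depleted cells and lowest in both fed groups, which did not differ beyond their spread. JUND was highest in starved control cells, and its starved OGDH-depleted and fed control libraries each overlapped those of fed OGDH-depleted cells. FOSL1 had its mean order as starved control, starved OGDH-depleted, fed OGDH-depleted and fed control, but each neighbouring pair overlapped. FOSL2 stayed between 124 and 204 CPM in all 12 libraries.

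The spread within groups was set beside the mitochondrially encoded share of the counts. FOSL1 was highest in the library with the highest share in 3 of 4 groups, and lowest in the library with the lowest share in all 4. Of genes with at least 5 CPM in every library, 32.7% met the first condition in 3 or more groups and 14.7% met both. FOS, FOSL2 and JUN were lowest in the library with the highest share in 3 of 4 groups, as were 28.7% of those genes in 3 or more. JUND and JUNB were lowest there in 2 of 4 groups, and JUNB was highest there in 1, fed OGDH-depleted cells. In starved OGDH-depleted cells the FOSL1 levels of 831, 1201 and 1571 CPM stood beside shares of 3.06%, 5.12% and 9.71%. JUND ran the other way there, with 134, 109 and 91.6 CPM, and so did JUNB, with 311, 277 and 215 CPM. In fed control cells the library with a share of 14.6% had the highest FOSL1 level, 1028 CPM, and the lowest JUND and JUNB levels, 62.7 and 112 CPM.

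The members also differ in base composition, from 52.9% GC in FOSL2 to 69.7% in JUND, against a median of 48.7% over the tested genes with a sequence. With the mitochondrial share as a term in the fit, FOSL1 rose with starvation by 0.89 in control cells (SE 0.06, adjusted p = 2.25e-10) and by 0.65 in OGDH-depleted cells (adjusted p = 7.72e-08). In the same fit its difference with OGDH loss was 0.30 with glucose (adjusted p = 0.00133) and 0.06 without glucose (adjusted p = 0.43). The part of the mitochondrial share in these results was not tested.

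**Figure D3:**
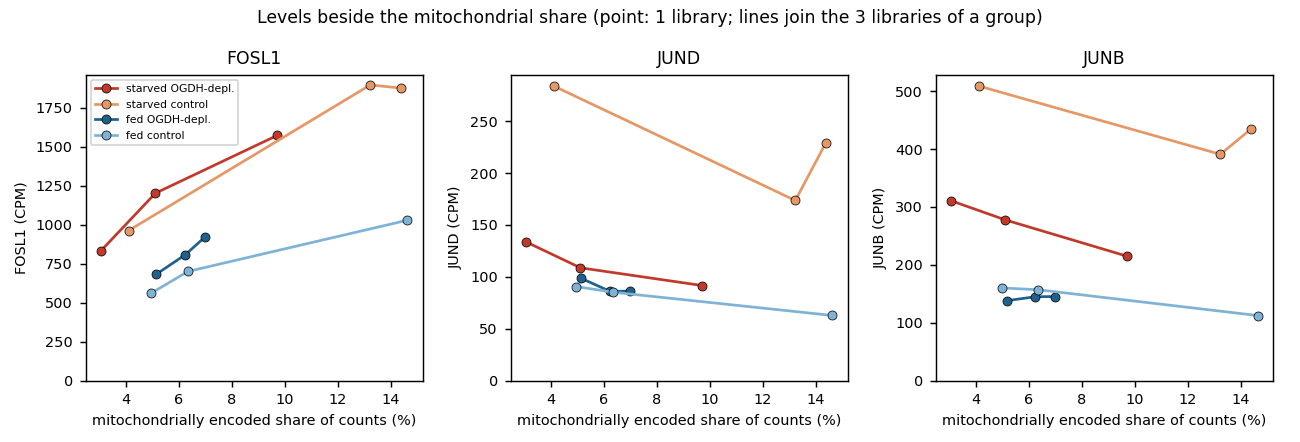
Levels of FOSL1, JUND and JUNB (CPM, vertical axes from 0) against the mitochondrially encoded share of counts in the same library (percent); points are libraries and lines join the 3 of a group. FOSL1 is higher and JUND mostly lower where the share is higher, while starved libraries stay above fed ones of a like share for FOSL1.

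Levels of different genes were set side by side per kilobase of exon. FOSL1 was the most abundant member in all 4 groups, with 637 CPM per kilobase in starved OGDH-depleted cells, 836 in starved control cells, 425 in fed OGDH-depleted cells and 404 in fed control cells. Of the summed length-scaled level of the 7 genes it held 58.5 ± 10.6% in starved OGDH-depleted cells, 51.3 ± 12.3% in starved control cells, 69.8 ± 3.16% in fed OGDH-depleted cells and 68.7 ± 9.53% in fed control cells (SD, n = 3 each). JUNB came next, with 146 CPM per kilobase in starved OGDH-depleted cells, 243 in starved control cells, 78.0 in fed OGDH-depleted cells and 78.2 in fed control cells. Its place rests on the scaling by length. Unscaled, JUN held 13.7% and 15.1% of the summed level in starved OGDH-depleted and starved control cells, against 10.75% and 11.5% for JUNB. In fed OGDH-depleted and fed control cells FOSL2 then held 12.3% and 11.9%, against 10.7% and 11.6% for JUNB. FOS was the least abundant member in both fed groups, with 3.62 and 4.26 CPM per kilobase in OGDH-depleted and control cells. After starvation it ranked just below JUN, at 76.9 CPM per kilobase in OGDH-depleted cells and 126 in control cells. Unscaled, FOS held 9.76% of the summed level in starved OGDH-depleted cells and 10.4% in starved control cells, below JUNB in both. In starved control cells it was then also below FOSB, at 12.8%. FOSL2, at 20.6 to 24.0 CPM per kilobase in all groups, was the least abundant after starvation. In starved OGDH-depleted cells that place rests on the scaling by length: unscaled, FOSL2 held 6.78% of the summed level, above JUND at 4.48%. In starved control cells FOSL2 was lowest unscaled as well, at 4.46% against 5.96% for JUND.

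The summed level was 1070 ± 143 CPM per kilobase in starved OGDH-depleted cells, 1598 ± 196 in starved control cells, 608 ± 62.8 in fed OGDH-depleted cells and 580 ± 100.1 in fed control cells. The share of FOS was 7.30% in starved OGDH-depleted cells and 8.05% in starved control cells, against 0.598% and 0.754% in the fed groups of the same cells. That of FOSB was 3.31% in starved OGDH-depleted cells and 5.67% in starved control cells, against 0.871% in fed OGDH-depleted cells and 0.852% in fed control cells. For both genes every starved library lay above every fed library of the same cells. The share of FOSL2 was 2.26% in starved OGDH-depleted cells and 1.54% in starved control cells, against 3.77% in fed OGDH-depleted cells and 3.68% in fed control cells. With 3 libraries against 3 an exact permutation test of a share cannot go below p = 0.10, so these shares are given as a description.

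**Figure D4:**
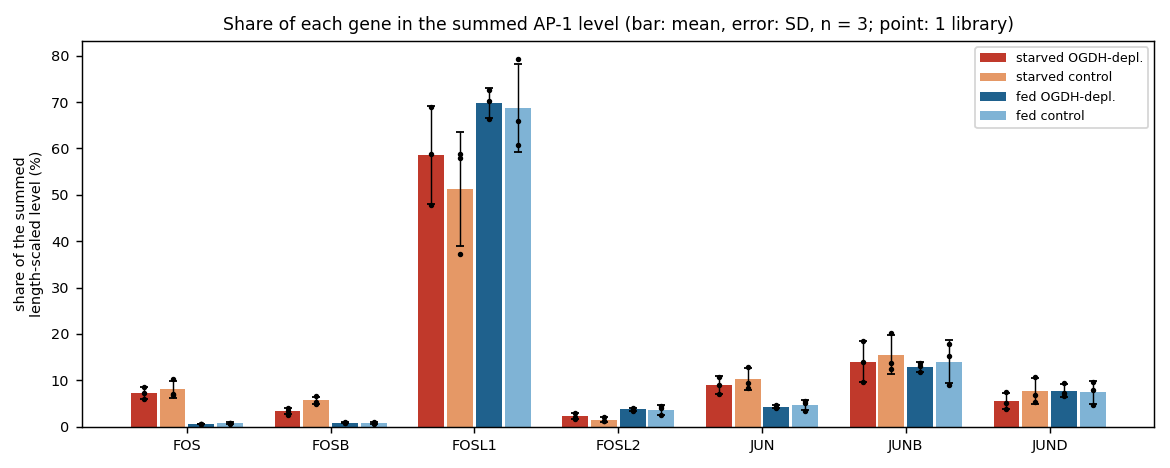
Share of each gene in the summed length-scaled level of the 7 AP-1 genes (percent, axis from 0) by group; bars are means, error bars SD (n = 3), points libraries. FOSL1 holds the largest share in all 4 groups, and the shares of FOS, FOSB and JUN are larger in starved than in fed cells.

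Other basic leucine zipper proteins that can pair with FOS or JUN were read from a list of 11 tested genes, and 6 of them rose with starvation in control cells (list median 0.63). Over all tested genes 17% were called higher and 17.5% lower there, and 2.42% and 4.76% with starvation in OGDH-depleted cells. With OGDH loss these shares were 1.59% and 1.45% with glucose and 13.7% and 15% without it. In the interaction they were 8.3% and 8.95%. ATF3, a stress-induced partner of JUN, rose to 217 ± 27.9 CPM in starved control cells against 32.8 ± 3.74 CPM in fed control cells (log2 fold change 2.73, SE 0.14, adjusted p = 1.03e-07). JDP2, a repressor that binds JUN, rose to 13.6 ± 0.847 CPM in starved control cells against 2.84 ± 0.555 CPM in fed control cells (log2 fold change 2.25, SE 0.18, adjusted p = 3.13e-06). In OGDH-depleted cells 1 of the 11 rose with starvation and 1 fell (median -0.05). ATF3 rose there by 1.61 (SE 0.13, adjusted p = 4.82e-05), and JDP2 fell by 0.80 (adjusted p = 0.0163). With OGDH loss 2 rose with glucose (median 0.49), and 1 rose and 3 fell without glucose (median -0.33). The 2 were JDP2 (1.82, adjusted p = 0.000504) and MAF (0.58, adjusted p = 0.0186), and MAF was also the riser without glucose (0.95, adjusted p = 9.06e-05). Without glucose JDP2 fell by 1.24 (adjusted p = 0.000272) and ATF3 by 1.10 (adjusted p = 9.05e-05). In the interaction 6 of the 11 were lower (median -0.76), among them JDP2 (-3.06, SE 0.25, adjusted p = 1.52e-05). That count was 3 without starved OGDH-depleted replicate 3 or any 1 of the fed OGDH-depleted libraries. The fall of JDP2 with starvation in OGDH-depleted cells was lost without fed OGDH-depleted replicate 1 or 2 or starved replicate 2 or 3 (adjusted p up to 0.0935). The rise of MAF with glucose was lost without any 1 fed library other than control replicate 2 (up to 0.101).

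Of 15 tested genes that are classical AP-1 targets, 11 rose with starvation in control cells (list median 0.997). Over all tested genes 17% were called higher and 17.5% lower there, and 2.42% and 4.76% with starvation in OGDH-depleted cells. With OGDH loss these shares were 1.59% and 1.45% with glucose and 13.7% and 15% without it. In the interaction they were 8.3% and 8.95%. MMP1, interstitial collagenase, stood at 37.1 CPM in starved control cells and at 3.09 CPM in fed control cells (log2 fold change 3.59, SE 0.19, adjusted p = 1.19e-07). MMP3, stromelysin, stood at 9.97 CPM in starved control cells and at 0.44 CPM in fed control cells. In OGDH-depleted cells 2 of the 15 rose with starvation and 1 fell (median 0.26). The risers were the cytokine gene IL6 (2.16, SE 0.18, adjusted p = 4.82e-05) and the chemokine gene CXCL8 (1.26, SE 0.13, adjusted p = 2e-04), and CCND1, which encodes cyclin D1, fell by 0.60 (adjusted p = 0.00145). With OGDH loss and glucose 2 rose and 2 fell (median 0.21). HBEGF, an EGF receptor ligand, rose by 1.03 (SE 0.09, adjusted p = 0.000214) and CCND1 by 0.49 (adjusted p = 0.00819), while MMP9 fell by 0.63 (adjusted p = 0.0284) and CXCL8 by 0.54 (adjusted p = 0.0419). Without glucose 7 of the 15 fell with OGDH loss (median -0.34), among them MMP10 by 2.51 (SE 0.21, adjusted p = 7.38e-06). MMP3 averaged 0.89 CPM in starved OGDH-depleted cells and 9.97 CPM in starved control cells. In the interaction 8 of the 15 were lower (median -0.50). With glucose, the CXCL8 call was lost on leaving out any 1 library except starved control replicate 3 and fed control replicate 3 (adjusted p up to 0.184). The CCND1 call was lost with the GC correction (0.37, adjusted p = 0.0732) and when only the fed groups were fitted (0.0692). The MMP9 call was lost without starved OGDH-depleted replicate 2 or any 1 fed library other than control replicate 2 (up to 0.155).

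**Figure D5:**
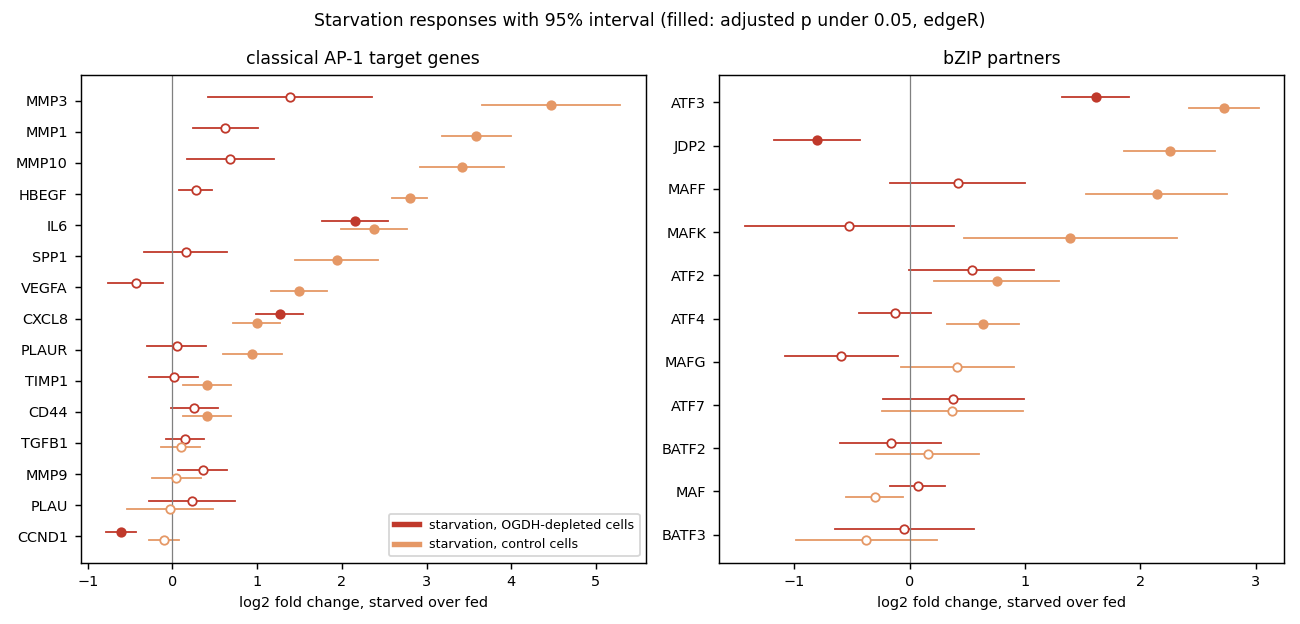
log2 fold changes with starvation of classical AP-1 targets (left) and basic leucine zipper partners (right), with 95% intervals, in OGDH-depleted cells (red) and control cells (orange); filled points passed an adjusted p of 0.05 by edgeR. In control cells 11 of 15 targets and 6 of 11 partners are filled, and in OGDH-depleted cells 3 targets and 2 partners. Of all tested genes 17% were called higher and 17.5% lower in control cells, and 2.42% and 4.76% in OGDH-depleted cells.

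The genes that act upstream of the family were read next. Of 17 tested MAP kinases and their kinases, 2 rose and 3 fell with starvation in control cells (median -0.02), beside 17% higher and 17.5% lower over all tested genes. The count of 5 came down to 3 without starved control replicate 1, starved OGDH-depleted replicate 2, fed OGDH-depleted replicate 1 or fed control replicate 1 or 3. It was 12 without the 3 libraries that stood apart and 8 with the mitochondrial share as a term in the fit. In those settings 11364 and 11006 of all tested genes were called, against 6400 in the main fit. MAP2K3, which activates p38, rose by 1.10 (SE 0.08, adjusted p = 2.37e-06), and MAP2K6, the other main p38 activator, fell by 2.0 (SE 0.14, adjusted p = 1.18e-06). MAPK8, which encodes JNK1, rose by 0.53 (adjusted p = 0.045) and MAPK12 fell by 0.84 (adjusted p = 0.0352), both with overlapping groups. In OGDH-depleted cells 1 rose with starvation, MAP2K6 (0.54, adjusted p = 0.0295; mean 4.96 CPM in starved cells). That call was lost without starved OGDH-depleted replicate 2 or 3, fed OGDH-depleted replicate 1 or 2 or fed control replicate 3, and with no filter. With OGDH loss 1 fell with glucose, again MAP2K6 (-0.90, adjusted p = 0.00437), and 3 rose and 1 fell without glucose (median 0.15). The 1 that fell was MAP2K3 (-0.76, SE 0.08, adjusted p = 5.5e-05), and MAPK14, which encodes p38 alpha, rose by 0.53 (SE 0.13, adjusted p = 0.00799). In the interaction 2 were higher and 1 lower. Over all tested genes 2.42% were called higher and 4.76% lower with starvation in OGDH-depleted cells. With OGDH loss these shares were 1.59% and 1.45% with glucose and 13.7% and 15% without it. In the interaction they were 8.3% and 8.95%. The MAPK8 and MAPK12 calls were each lost without starved control replicate 1 or 2, without fed control replicate 1 or 3, and without some of the OGDH-depleted libraries (adjusted p up to 0.152 for MAPK8 and 0.128 for MAPK12).

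Of 11 tested factors and coactivators that act at the FOS and JUN promoters, 4 rose and 1 fell with starvation in control cells (median 0.43). Over all tested genes 17% were called higher and 17.5% lower there, and 2.42% and 4.76% with starvation in OGDH-depleted cells. With OGDH loss these shares were 1.59% and 1.45% with glucose and 13.7% and 15% without it. In the interaction they were 8.3% and 8.95%. MEF2A (0.82, SE 0.22, adjusted p = 0.013) and MEF2D (0.81, SE 0.13, adjusted p = 0.000661), factors of the JUN promoter, rose. MRTFB, a coactivator of SRF, fell by 1.46 (SE 0.33, adjusted p = 0.00547). In OGDH-depleted cells 0 of the 11 passed with starvation by edgeR and 0 by DESeq2, and 2 had an unadjusted p under 0.05. SRF, which binds the serum response element of FOS, rose with OGDH loss by 0.58 with glucose (SE 0.11, adjusted p = 0.0157) and by 0.42 without it (SE 0.11, adjusted p = 0.0118). It was the 1 riser with glucose. Without glucose 2 of the 11 rose and 2 fell, and in the interaction 1 was higher and 1 lower. The MEF2A rise was lost without starved control replicate 2 or fed control replicate 1 or 3 (adjusted p up to 0.0534). The SRF rise with glucose was lost without any 1 of the fed OGDH-depleted libraries (up to 0.0847) and when only the fed groups were fitted (0.0961). With the GC correction both SRF calls were lost (0.36, adjusted p = 0.137, with glucose and 0.32, adjusted p = 0.0824, without it).

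Of 12 tested genes for the turnover of AP-1 mRNAs and proteins, 4 rose and 1 fell with starvation in control cells (median 0.20). Over all tested genes 17% were called higher and 17.5% lower there, and 2.42% and 4.76% with starvation in OGDH-depleted cells. With OGDH loss these shares were 1.59% and 1.45% with glucose and 13.7% and 15% without it. In the interaction they were 8.3% and 8.95%. ZFP36, which encodes tristetraprolin, a protein that promotes decay of AU-rich mRNAs such as FOS, averaged 482 CPM in starved control cells and 30.5 CPM in fed control cells (log2 fold change 3.98, SE 0.15, adjusted p = 1.24e-08). It was the 1 gene of the list that rose in OGDH-depleted cells (2.51, SE 0.14, adjusted p = 4.59e-06). With OGDH loss and glucose 0 of the 12 passed by edgeR and 0 by DESeq2, and 1 had an unadjusted p under 0.05. Without glucose 1 rose and 3 fell, among them ZFP36 by 1.38 (SE 0.13, adjusted p = 1.91e-05) and its relative ZFP36L1 by 1.27 (SE 0.32, adjusted p = 0.0116). In the interaction 4 of the 12 were lower, and 2 without starved control replicate 1 or fed OGDH-depleted replicate 2.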

How the data were processed

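RNA sequencing counts of 12 A375 libraries were used, grouped by the sample titles. The authors counted fragments per gene name with featureCounts 2.0.1 over exons, as pairs and without strand, leaving out multi-mapping fragments and those over more than 1 gene, per the file headers. The deposited values are raw counts. The submitters' processing notes name hg38 and Subread; the aligner is not given in the sources used here. Without strand, reads of overlapping antisense genes cannot be told apart.

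Genes were kept by filterByExpr (minimum count 10, minimum total 15) and tested with edgeR 4.0.16 (R 4.3.3): quasi-likelihood, TMM factors, 1 model with a mean for each of 4 groups over all 12 libraries. Benjamini-Hochberg adjustment ran over all 18526 tested genes, and an adjusted p under 0.05 passed. CPM used TMM-scaled totals, and CPM per kilobase the exon length in the deposited table. The members, 5 gene lists and tests were chosen with earlier results of these data known. BATF and MMP13 were listed but not tested, and 1 listed partner gene is not reported here. List genes were named by a rule: per list and comparison, up to 2 that rose and up to 2 that fell, by size of change, if the higher group averaged 5 CPM or more; MAP2K6 in starved OGDH-depleted cells is named outside it. The alternatives, DESeq2 1.42.0 among them, are given in the closing section. Replicate pairs differed by 3.76 to 154 in chi-square per degree of freedom, so no library repeats another.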

Additional observations from a re-analysis of the deposited data

Results flagged for a closer look

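The following results, among the members and the list genes named by rule, were picked out because the response to starvation differed between OGDH-depleted and control cells in a test of that difference itself (the edgeR interaction, OGDH-depleted minus control, adjusted p under 0.05, log2 scale). Other list genes also passed and are counted with their lists. Among the members these were FOSB (-1.48, adjusted p = 6.16e-05), JUN (-0.75, adjusted p = 0.00687) and JUND (-1.22, adjusted p = 0.0115). Among the partners they were ATF3 (-1.11), JDP2 (-3.06) and MAFK (-1.92). Among the kinases MAP2K3 responded less in OGDH-depleted cells (-0.99), whereas MAP2K6 (2.54) and MAPK14 (0.59) differed in the other direction. Among the factors and coactivators of the FOS and JUN promoters the differences were -0.86 for MEF2D and 1.74 for MRTFB. Among the classical targets they were -2.53 for HBEGF, -2.96 for MMP1, -3.08 for MMP3, -2.74 for MMP10 and -0.50 for CCND1. MMP3 and MMP10 stood under 2 CPM in starved OGDH-depleted cells and in both fed groups. Among the turnover genes they were -1.48 for ZFP36 and -1.76 for ZFP36L1. The MAFK, MAPK14, MRTFB and ZFP36L1 differences were lost on leaving out some single libraries, with adjusted p up to 0.1, 0.103, 0.0605 and 0.054. The MEF2D difference was lost with the GC correction (-0.77, adjusted p = 0.106), as were those of MAPK14 (adjusted p = 0.092) and ZFP36L1 (0.0555). Each group had 3 libraries, too few for a check of single outlying values.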

How the results depend on the processing

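The members' counts held in most settings. Of 7 members, 4 to 6 passed for starvation in OGDH-depleted cells, 5 to 7 in control cells and 5 to 7 for OGDH loss without glucose over all settings, 2 of which were chosen after seeing the data. Without the 3 outlying libraries (the first of those 2) the count for OGDH loss with glucose was 1 and for the interaction 5; with the mitochondrial share covariate they were 2 and 7. The same replicate numbers do not pair the libraries (correlation of deviations -0.66 to 0.55), and a replicate block changed no member's call. Under the replicate block the log2 fold change of JUNB with OGDH loss and glucose was 0.0070 (adjusted p = 0.989). Over all genes, OGDH loss with glucose called 563, against 342 under the block, 1457 with the GC correction, 215 in the groups compared alone, 1092 by DESeq2 and 172 to 632 leaving out 1 library. The 2 added settings called 2021 and 4153 there, 3313 and 9688 against 1330 for starvation in OGDH-depleted cells, 11364 and 11006 against 6400 in control cells, 9874 and 10469 against 5310 for OGDH loss without glucose, and 8077 and 9000 against 3196 for the interaction, where the GC correction gave 5040. Leaving out 1 library moved the 1330 to between 583 and 1959. Without length scaling the FOSL1 share was 46.9% in starved and 60.0% in fed OGDH-depleted cells. The FOSL2 share was then 6.78% and 12.3% there, and that of FOSB 7.70% and 2.20%.

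Signs turned only in members that had not passed in that comparison, for causes not tested. The values by gene below are log2 fold changes. With OGDH loss and glucose, FOSB was -0.050, FOSL1 -0.23 and JUND -0.088 with the GC correction. JUN was 2.96e-05 with no filter and 0.0064 without mitochondrial genes. JUNB was 0.00066 with RLE factors, 0.0060 with no filter, 0.012 without mitochondrial genes and 0.0062 by DESeq2. Leaving out 1 library gave -0.10 to 0.35 for FOSL1, -0.090 to 0.047 for JUN and -0.15 to 0.086 for JUNB. FOSL2 with starvation was -0.047 in control cells without the 3 libraries, and in OGDH-depleted cells -0.0077 with the covariate and -0.076 to 0.18 leaving out 1 library. Without glucose, OGDH loss gave FOSL1 0.063 with the covariate, and FOSL2 0.021 with no filter, 0.21 without the 3 libraries and -0.15 to 0.12 leaving out 1. The FOSL2 interaction was 0.19 without the 3 libraries. The list counts moved more. Targets with starvation in OGDH-depleted cells ran from 3 to 12 and kinases with OGDH loss without glucose from 3 to 14. The 12 and 14 came with the covariate. There 9688 and 10469 of all tested genes were called, against 1330 and 5310 in the main fit. Without the 3 libraries 7 promoter factors and 7 turnover genes passed in the interaction, against 2 and 4. All genes called there were 8077, against 3196. Depth did not limit the members, whose lowest level was 10.8 CPM, but MMP3 rests on few fragments in fed cells.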

Other observations

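For each member the 3 genes with the most similar pattern were taken by the root mean square (RMS) difference of centred log2 CPM over the 12 libraries, among 11701 genes, as a description. FOSB lay closest to ZFP36 (0.17), DNAJB1 (0.28) and RGS2 (0.49). DNAJB1, which encodes a heat shock co-chaperone, averaged 1049 CPM in starved OGDH-depleted cells, 3233 CPM in starved control cells, 229.6 CPM in fed OGDH-depleted cells and 222 CPM in fed control cells. The nearest genes to FOS were FOSB (0.65) and the chaperone genes HSPA1A (0.69) and HSPA1B (0.73), near-identical copies whose counts are uncertain. JUN lay closest to ATF3 (0.14), NUAK2 (0.25) and IL6 (0.26).

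FOSL1 lay closest to RUNX1 (0.05), a transcription factor gene that averaged 312 CPM in starved OGDH-depleted cells, 394 CPM in starved control cells, 202 CPM in fed OGDH-depleted cells and 186 CPM in fed control cells. It was followed by UBALD2 (0.11) and MED15 (0.12). JUNB lay closest to ANKRD37 (0.15), SOWAHC (0.17) and ZNF460 (0.20), and JUND to RGS3 (0.11), FAM43A (0.15) and GOT1 (0.15). The nearest genes to FOSL2, RNF10, ADAMTSL1 and BCL2L13, each lay at 0.05 from it.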
